A study of Homo sapiens with 16 samples.

Results

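Small nucleolar RNA (snoRNA) host genes were taken as every gene whose GENCODE symbol begins with SNHG, together with GAS5, DANCR and EPB41L4A-AS1. The rule used symbols alone and no measured value, and it gave 31 members of 58676 gene identifiers in the count files, all annotated as lncRNA genes. Poly(A) RNA was sequenced from 2 established human cancer lines, A549 from a lung tumour and SUM159 from a triple-negative breast tumour. Cells of each line were untreated, or had been given 2 µM palbociclib, 3 µM indisulam or both drugs together for 16 h, with 2 libraries in each of 8 groups. The labels name no vehicle for the untreated cells and describe no genetic change in either line. The duplicates were technical by the study's account, and p-values here measure only the spread between these libraries.

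snoRNA host genes are transcribed by RNA polymerase II, and their introns carry snoRNAs that are released when the introns are spliced out and trimmed. Box C/D snoRNAs guide the methylation of ribosomal RNA and box H/ACA snoRNAs guide its conversion to pseudouridine, while small Cajal body RNAs (SCARNA) act in the same way on spliceosomal RNAs. The spliced host RNA that remains is what a poly(A) library captures. Spliced RNA of several hosts, GAS5 among them, is known to be degraded by nonsense-mediated decay (NMD) while it is translated, and the GAS5 transcript was first described for its build-up in growth-arrested cells. Palbociclib inhibits the cell cycle kinases CDK4 and CDK6. Indisulam leads to the degradation of RBM39, a protein needed for the splicing of many transcripts. Levels of host RNAs could be compared here between these drugs, while neither splicing, snoRNA release nor growth state was measured.

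The members differed widely in what they host. RefSeq placed 144 snoRNA genes inside their spans, in 26 of the 31 members, of which 11 held only box C/D snoRNAs, 11 held only box H/ACA snoRNAs, 3 held both and SNHG28 held an unnamed one. SNHG14, the long transcript of the imprinted Prader-Willi region, held 83, GAS5 held 11 and SNHG1 held 9, whereas 12 members held exactly 1. The 5 members without one in RefSeq were SNHG10, SNHG20, SNHG21, SNHG22 and SNHG27, and GENCODE placed a SCARNA gene in the first 4 of these and SNORA70 in SNHG27. The canonical transcript had between 2 and 57 exons, with a median of 4, and between 311 and 7005 bases. On the same strand 12 members overlapped the span of another gene other than a small RNA, and on the opposite strand 17 met an exon of another gene. The strand setting of the counting is not given in the sources used here, so counts of these members are uncertain.

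Many host genes begin transcription at a C within a run of pyrimidines, the 5′ terminal oligopyrimidine (TOP) start shared with ribosomal protein genes. The starts are shown because the members are set beside ribosomal protein genes further on. Each window runs on the transcribed strand from 45 bases before to 35 bases after the RefSeq start (build GRCh38.p14), and capitals mark a run of 5 or more pyrimidines that begins with C near the start and the letters TATAA. SNHG5, SNHG12 and SNHG19 show both features, SNHG32, SNHG4 and SNHG17 the run alone and SNHG1 neither.
SNHG5: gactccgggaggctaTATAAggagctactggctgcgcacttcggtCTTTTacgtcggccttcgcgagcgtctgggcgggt
SNHG12: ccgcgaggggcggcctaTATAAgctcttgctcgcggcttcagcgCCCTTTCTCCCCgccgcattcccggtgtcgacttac
SNHG19: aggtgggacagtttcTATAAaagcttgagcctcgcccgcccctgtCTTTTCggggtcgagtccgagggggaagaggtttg
SNHG32: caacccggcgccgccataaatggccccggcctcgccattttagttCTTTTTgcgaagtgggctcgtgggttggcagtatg
SNHG4: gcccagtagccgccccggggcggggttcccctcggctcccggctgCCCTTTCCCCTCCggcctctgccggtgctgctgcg
SNHG17: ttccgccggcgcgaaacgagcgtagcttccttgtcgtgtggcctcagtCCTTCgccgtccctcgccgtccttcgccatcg
SNHG1: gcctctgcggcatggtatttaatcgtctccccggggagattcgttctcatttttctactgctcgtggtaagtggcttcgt
These windows lie at chr6:85678699-85678778 on the minus strand for SNHG5, chr1:28581839-28581918 on the minus strand for SNHG12, chr16:2155324-2155403 on the minus strand for SNHG19 and chr6:31834871-31834950 on the plus strand for SNHG32. They lie at chr5:139274056-139274135 on the plus strand for SNHG4, chr20:38435294-38435373 on the minus strand for SNHG17 and chr11:62855851-62855930 on the minus strand for SNHG1. A promoter was listed for 27 members, and 14 of them (51.85%) held a run of at least 5 pyrimidines that began with C from 5 bases before to 10 bases after the first transcribed base, on the transcribed strand. The same held for 27.03% of 34943 promoters of the same length. The letters TATAA, searched on both strands between positions -40 and -20, were in 5 of the 27 (18.52%) and in 4.553% of all promoters. RefSeq and GENCODE starts differ for some members, GAS5 and SNHG14 among them, so a window without a run does not describe every start of that gene.

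Gene counts per library ran from 18306636 to 34075588, and 3 counts corresponded to between 0.0880 and 0.164 CPM (counts scaled to a common library size). That floor covers counting error only. The epithelial keratins KRT8 and KRT18 were at 4832 CPM or more in untreated A549, where the lung markers NKX2-1, SFTPB and SFTPC had at most 3 counts. A549 also had KRT7 at 1486 and 1453 CPM, CDH1 at 79.0 and 80.7, EPCAM at 26.15 and 24.4 and VIM at 930 and 923. Untreated SUM159 had no PGR counts, at most 9 counts of ESR1, CDH1 and EPCAM, and VIM at 4144 and 3966 CPM. It also had KRT7 at 1995 and 1982 CPM, KRT8 at 619 and 630, KRT18 at 446 and 450 and KRT5 at only 1.5 and 1.4. ERBB2 was between 98.4 and 110.4 CPM in both lines. The spread within each pair of duplicates exceeded counting error in all 8 groups. In each line 26 members passed the filter on low counts, 25 of them in both lines. SNHG22, SNHG27, SNHG28 and SNHG31 passed in neither, SNHG18 passed only in SUM159 and SNHG26 only in A549. SNHG27 and SNHG28 had no count in any library.

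The members' levels in untreated cells spanned a wide range. Per kilobase of the GENCODE canonical transcript, SNHG29 was at 811 ± 21.7 CPM (SD, n = 2 for all levels) in A549, followed by SNHG16 at 280.0 ± 14.8, GAS5 at 163 ± 7.76, SNHG1 at 93.7 ± 4.27 and SNHG5 at 90.2 ± 2.78. In SUM159 the order began with SNHG29 at 741 ± 11.3 CPM per kilobase, SNHG16 at 351 ± 7.87, GAS5 at 158 ± 7.91, SNHG5 at 120.3 ± 4.05 and SNHG1 at 108 ± 10.9. In A549 the levels of SNHG1 and SNHG5 differed by less than the SD of SNHG1, and every other pair of neighbours in these orders differed by more than the larger SD. The counts cover all annotated exons, so a level per length depends on the transcript chosen. Untreated SUM159 differed from untreated A549 in 24 of 27 members tested in a fit of all 16 libraries, 14 higher and 10 lower, against 76.3% of all genes called in either direction. DANCR, a host of SNORA26, had 56.0 and 53.5 CPM in A549 and 101.6 and 99.1 in SUM159, a log2 difference of 0.74 (SE 0.0487, edgeR adjusted p = 6.92e-13). SNHG14 had 29.4 CPM in both A549 libraries and 80.8 and 86.2 in SUM159. SNHG18 had no count in any A549 library and 1.24 to 4.18 CPM in SUM159, and SNHG26 had 3.67 to 8.22 CPM in A549 and at most 0.401 in SUM159.

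The members' summed level was 1278 ± 8.51 CPM in untreated A549, 1356 ± 11.3 with palbociclib, 1682 ± 10.1 with indisulam and 1595 ± 14.8 with the combination. In SUM159 it was 1478 ± 47.5, 1318 ± 2.20, 1723 ± 39.8 and 1427 ± 37.1 CPM in the same order, so it was highest with indisulam in both lines.

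Most host RNAs rose with indisulam in A549. Of 26 members tested 19 rose and 2 fell, where 23.3% of all genes rose and 25.9% fell (edgeR quasi-likelihood test, adjusted p under 0.05 over 15744 genes). The median log2 change was 0.60 over the tested members and 0.01 over all genes. The members are better expressed than most genes, so a limit of 5 CPM on the mean level was added after the data were seen, and above it 19 of 23 members rose and 2 fell, where 27.2% of genes rose and 30.5% fell. In SUM159, 13 of 26 members rose and 3 fell, where 21.9% of 16080 genes rose and 24.9% fell, and the medians were 0.20 and 0.01. With the same 5 CPM limit 13 of 21 members rose and 2 fell, against 24.1% and 33.8% of genes. No member called with indisulam had overlapping groups in either line. With 2 libraries per group the call and the separation of groups are not independent, and the share of all called genes without overlap was not counted. SNHG26 in A549, at 2.07-fold, was the only one of these calls to reach 2-fold. The untreated libraries are shared by all comparisons with untreated cells, and in bulk RNA a change in the share of cells with a transcript and a change per cell cannot be told apart.

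**Figure D1:**
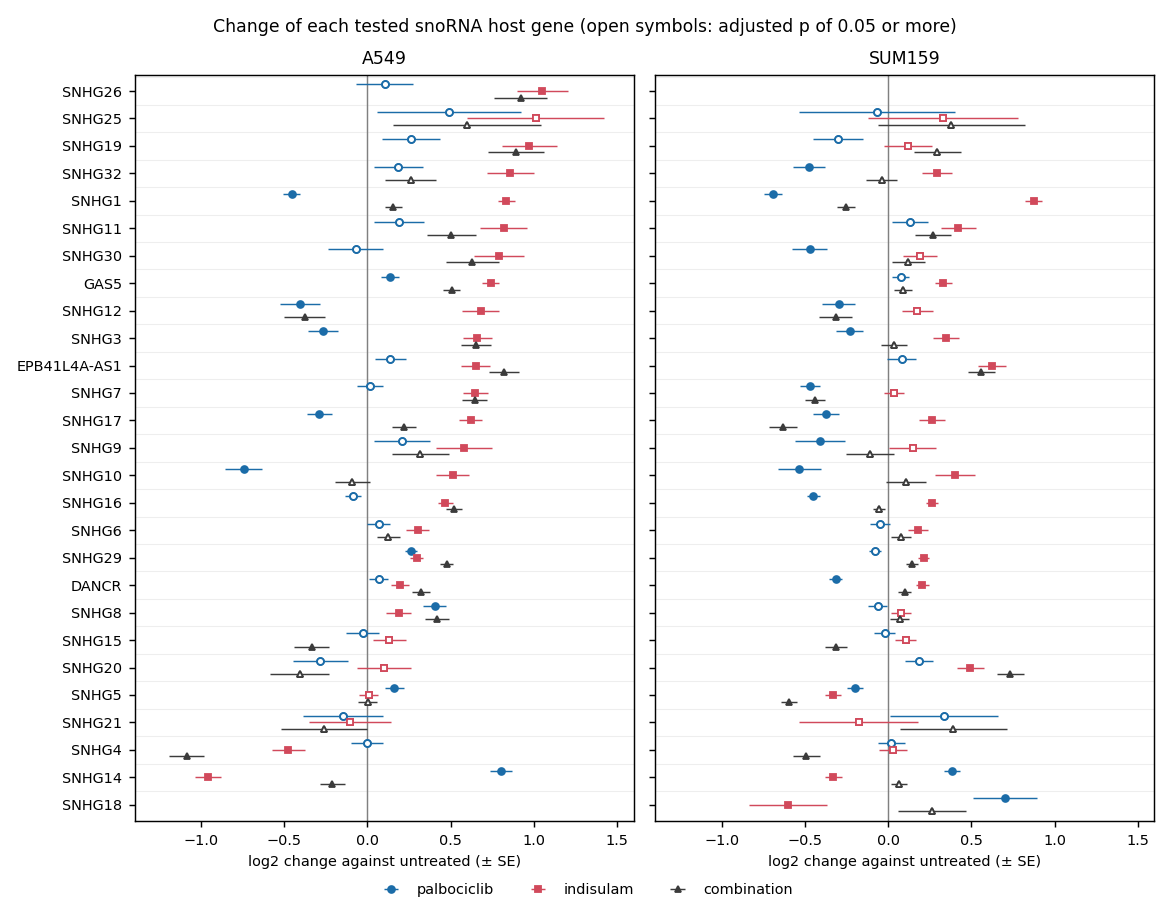
Log2 change against untreated cells (x axis, ± SE) of each host gene tested (y axis, ordered by the indisulam change in A549), for palbociclib (circles), indisulam (squares) and the combination (triangles), with open symbols where the edgeR adjusted p was 0.05 or more. Indisulam values lie to the right of 0 for 23 of 26 members in A549 and 22 of 26 in SUM159, with SNHG14 below 0 in both.

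GAS5, the host of 10 box C/D snoRNAs, was at 121 and 129 CPM in untreated A549 and at 206 and 212 with indisulam, a 1.67-fold increase (log2 change 0.74, SE 0.0511, edgeR adjusted p = 3.52e-08). The SUM159 level went from 126 and 117 CPM to 147 and 159, a change of 0.33 on the log2 scale (SE 0.0522, edgeR adjusted p = 6.47e-05). Both indisulam libraries were above both untreated ones in each line. SNHG1, which hosts a series of box C/D snoRNAs including SNORD22 and SNORD25 to SNORD31, rose from 105 and 112 CPM to 197 and 191 in A549 (log2 change 0.83, SE 0.0498, edgeR adjusted p = 7.92e-09). In SUM159 it rose from 135 and 117 CPM to 229 and 233, a change of 0.87 on the log2 scale (SE 0.0501, edgeR adjusted p = 7.4e-10). This was the largest log2 change with indisulam of any member in SUM159. EPB41L4A-AS1, the host of SNORA13, went from 11.99 and 13.3 to 19.4 and 20.3 CPM in A549 and from 15.5 and 13.5 to 21.3 and 23.3 in SUM159, with log2 changes of 0.65 (SE 0.0885) and 0.62 (SE 0.0822). DANCR rose by the same small log2 change of 0.20 in each line (adjusted p = 0.00914 in A549 and 0.000398 in SUM159, edgeR).

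Among called members with a mean of at least 5 CPM, the largest increases in A549 were those of SNHG26, SNHG19 and SNHG32. SNHG26, the host of SNORD93, went from 3.67 and 4.17 to 8.22 and 7.996 CPM. SNHG19, the host of SNORD60, went from 8.42 and 8.57 to 16.3 and 17.1 CPM, a change of 0.97 on the log2 scale (SE 0.165, edgeR adjusted p = 0.000224). SNHG32, the host of SNORD48 and SNORD52, went from 5.58 and 7.27 to 11.8 and 11.4 CPM, with a log2 change of 0.86 (SE 0.14). The indisulam libraries of these 3 genes were all above the untreated ones. SNHG20, a member with SCARNA16 in its span, rose in SUM159 from 12.9 and 12.4 CPM to 16.9 and 18.8 (log2 change 0.49, SE 0.0827, edgeR adjusted p = 0.000116). In A549 its log2 change was 0.10 (SE 0.164, adjusted p = 0.647). SEC14L1, on the same strand, had log2 changes of -0.01 (SE 0.0348) in SUM159, not called, and -0.35 (SE 0.0573, edgeR adjusted p = 0.00016) in A549.

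Few members moved down with indisulam. SNHG14 fell in both lines, from 29.4 CPM in both libraries to 15.1 and 15.2 in A549 (log2 change -0.96, SE 0.08, edgeR adjusted p = 2.53e-07) and from 80.8 and 86.2 to 65.5 and 67.2 in SUM159 (log2 change -0.33, SE 0.0497). SNRPN, a protein-coding gene on the same strand in the same imprinted region, had log2 changes of 0.26 (SE 0.247) and 0.21 (SE 0.254) and was called in neither line. SNHG4, the host of SNORA74A and SNORA74D, fell in A549 from 59.5 and 70.2 to 44.4 and 48.8 CPM (log2 change -0.48, SE 0.0998, edgeR adjusted p = 0.0012), and its SUM159 change was 0.03 (SE 0.0813). SNHG4 overlaps MATR3 on the same strand, whose log2 changes were 0.40 (SE 0.213, adjusted p = 0.135) in A549 and 0.32 (SE 0.232, adjusted p = 0.27) in SUM159. SNHG5, the host of SNORD50A and SNORD50B, fell in SUM159, from 162 and 155 CPM to 126 and 125 (log2 change -0.33, SE 0.0479, edgeR adjusted p = 2.38e-05). SNHG18 was the other member to fall there (log2 change -0.60, SE 0.234, adjusted p = 0.0447), at under 5 CPM, and its call was lost by DESeq2, with total gene counts as library sizes and without either untreated, either combination or the first indisulam library. Across the lines 12 members rose in both: GAS5, DANCR, EPB41L4A-AS1, SNHG1, SNHG3, SNHG6, SNHG10, SNHG11, SNHG16, SNHG17, SNHG29 and SNHG32. SNHG14 was the only one of the 25 tested in both lines to fall in both, and none was called in opposite directions. The share of all genes called alike in both lines was not counted, for indisulam or for the other comparisons. Counts and lists of members called in both lines therefore have no such share to be set against. By DESeq2 17 members rose and 2 fell in A549, where 2498 of 15744 genes rose and 3210 fell. In SUM159 9 members rose and 2 fell by DESeq2, where 2302 of 16080 genes rose and 3460 fell. Of the 12 named above, the DESeq2 fits did not call DANCR in A549 or SNHG6, SNHG10, SNHG17 and SNHG32 in SUM159.

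**Figure D2:**
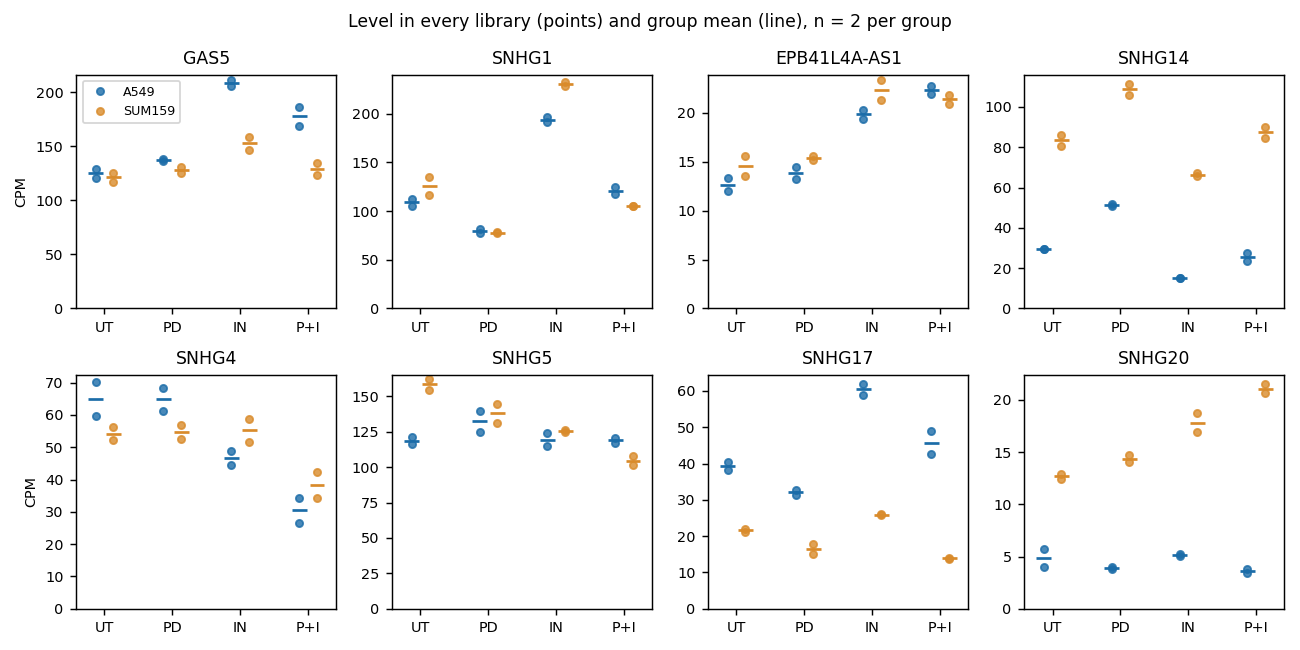
CPM (y axis) of 8 host genes in every library (points, n = 2) and the group mean (lines) in untreated (UT), palbociclib (PD), indisulam (IN) and combination (P+I) cells of A549 (blue) and SUM159 (orange). SNHG1 is highest with indisulam in both lines, at 191 CPM or more, and SNHG14 is highest with palbociclib in both.

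With palbociclib fewer members rose. In A549, 5 rose and 5 fell, 19.23% each way, where 22.0% of all genes rose and 21.1% fell, and the members' median log2 change was 0.07. In SUM159, 2 rose and 12 fell, where 25.5% of genes rose and 29.0% fell, with a median of -0.14 over members and 0.02 over all genes. With total gene counts as library sizes the SUM159 split was 4 to 8, where 5548 of 16080 genes rose and 3331 fell. By DESeq2 the A549 split was 3 to 5, where 2096 of 15744 genes rose and 2613 fell. SNHG1, SNHG3, SNHG10, SNHG12 and SNHG17 fell in both lines, though with total gene counts the call of SNHG3 was lost in both and that of SNHG12 in SUM159. SNHG1 was at 81.8 and 77.2 CPM in A549 and 77.1 and 78.3 in SUM159, log2 changes of -0.46 (SE 0.0517, edgeR adjusted p = 6.09e-06) and -0.69 (SE 0.0529, edgeR adjusted p = 7.64e-09). SNHG10, in whose span GENCODE places SCARNA13, went from 9.87 and 8.96 to 5.88 and 5.45 CPM in A549 (log2 change -0.74, SE 0.11) and from 7.96 and 6.47 to 5.33 and 4.69 in SUM159 (log2 change -0.53, SE 0.131). SNHG12, which carries 3 box H/ACA snoRNAs and SNORD99, went from 13.9 and 14.3 to 9.71 and 11.3 CPM in A549, a change of -0.41 on the log2 scale (SE 0.121, edgeR adjusted p = 0.0143). The groups did not overlap for these 3 genes in either line. As with indisulam, such separation is not independent of the call, and the share of all called genes without overlap was not counted.

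SNHG14 rose with palbociclib in both lines. It had 52.1 and 50.8 CPM in A549 (log2 change 0.80, SE 0.0685, edgeR adjusted p = 3.02e-07) and 106 and 111 CPM in SUM159 (log2 change 0.38, SE 0.0473, edgeR adjusted p = 2.89e-06), above every untreated library. SNRPN had log2 changes of 0.55 (SE 0.23, adjusted p = 0.0698) in A549 and 0.92 (SE 0.224, adjusted p = 0.00228) in SUM159. UBE3A, which meets SNHG14 on the opposite strand, fell with palbociclib in A549 (log2 change -0.13, SE 0.048) and in SUM159 (-0.38, SE 0.0424). With indisulam UBE3A was called in neither line (0.09 and 0.10). SNHG8, the host of SNORA24, rose in A549 from 29.4 and 27.2 to 36.9 and 38.0 CPM (log2 change 0.40, SE 0.0711). SNHG29, the host of SNORD49A, SNORD49B and SNORD65, rose there from 366 and 353 to 429 and 433 CPM (log2 change 0.26, SE 0.0379). In SUM159 SNHG32 went from 12.4 and 12.9 to 8.44 and 9.70 CPM (log2 change -0.48, SE 0.0968, edgeR adjusted p = 0.000492), and DANCR went from 101.6 and 99.1 to 81.1 and 80.1 CPM (log2 change -0.32). SNHG5 was called in opposite directions, at 0.16 in A549, a call lost by DESeq2, and -0.20 in SUM159, a call lost with total gene counts. GAS5 had 138 and 136 CPM in A549, for which the log2 change was 0.14 (edgeR adjusted p = 0.0468, and not called by DESeq2), and 125 and 131 CPM in SUM159, with 0.07 (adjusted p = 0.25). EPB41L4A-AS1 had 13.2 and 14.4 CPM in A549 and 15.6 and 15.1 in SUM159, and DANCR had 54.8 and 59.5 in A549, none of these called and all with overlapping groups. SNHG3 was the only member called in A549 whose groups overlapped, and RCC1, which it overlaps on the same strand, also fell in both lines (log2 changes of -0.61 and -0.92). With indisulam, where SNHG3 rose in both lines, RCC1 fell in both (log2 changes of -0.19, SE 0.0502 and -0.15, SE 0.0364).

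With the combination the lines differed in balance. In A549, 14 rose and 4 fell, where 27.4% of all genes rose and 30.4% fell, with a median log2 change of 0.32 over members. In SUM159, 5 rose and 7 fell, 19.23% and 26.92% of members, where 32.2% of genes rose and 33.1% fell. With total gene counts as library sizes in place of TMM, the A549 split was 15 to 1, where 5342 of 15744 genes rose and 3907 fell. The SUM159 split was then 12 to 5, where 6820 of 16080 genes rose and 3785 fell. DESeq2 gave 3 to 7 in SUM159, where 3945 genes rose and 4754 fell. The balance of directions in SUM159 therefore depends on the scaling. DANCR, EPB41L4A-AS1, SNHG11 and SNHG29 rose in both lines, SNHG4, SNHG12 and SNHG15 fell in both, and SNHG1, SNHG7 and SNHG17 were called higher in A549 and lower in SUM159. In SUM159 the calls of DANCR and SNHG11 were lost by DESeq2 and with no filter on low counts, that of DANCR also with the replicate block, and those of SNHG1 and SNHG12 with total gene counts. In A549 the call of SNHG1 was lost without the first untreated or the second combination library, and that of SNHG17 without the first untreated or the first combination library.

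EPB41L4A-AS1 had 22.7 and 21.9 CPM with the combination in A549 and 21.8 and 20.9 in SUM159, log2 changes of 0.82 (SE 0.0879, edgeR adjusted p = 1.61e-06) and 0.56 (SE 0.0818, edgeR adjusted p = 1.29e-05). SNHG4 had 26.6 and 34.4 CPM in A549 and 42.4 and 34.3 in SUM159, log2 changes of -1.09 (SE 0.106, edgeR adjusted p = 5.75e-07) and -0.49 (SE 0.0838, edgeR adjusted p = 6.58e-05), and MATR3 was at -0.15 (SE 0.233) and 0.10 (SE 0.235). SNHG4 in A549, at 0.471-fold, was the only member called below 0.5-fold against untreated cells. SNHG20 reached 21.5 and 20.6 CPM in SUM159, the largest increase there (log2 change 0.73, SE 0.0797, edgeR adjusted p = 3.9e-07). SEC14L1, which SNHG20 overlaps on the same strand, rose by a log2 change of 0.37 (SE 0.0346). SNHG17, the host of the SNORA71 snoRNAs, had 14 and 13.8 CPM in SUM159 against 21.2 and 21.9 in untreated cells (log2 change -0.63, SE 0.0837). In A549 it had 49.1 and 42.5 CPM against 38.3 and 40.4, a log2 change of 0.22. SNHG5 fell in SUM159 to 108 and 101 CPM, a change of -0.60 on the log2 scale (SE 0.0482, edgeR adjusted p = 8.9e-09), and stood at 120.5 and 117 CPM in A549, within the range of the untreated libraries.

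In A549 the combination raised SNHG26 to 6.76 and 8.06 CPM (log2 change 0.92, SE 0.158) and SNHG19 to 18.6 and 12.8 CPM (log2 change 0.89, SE 0.168). SNHG12 and SNHG15 fell to 9.66 and 12.1 CPM and to 16.5 and 18.4 CPM (log2 changes of -0.38 and -0.34), and neither was called with total gene counts as library sizes. SNHG11, with SNORA60 and SNORA71E, rose in SUM159 from 6.70 and 6.75 to 8.11 and 8.10 CPM (log2 change 0.27, SE 0.107, edgeR adjusted p = 0.0364). SNHG1 stood between the single drugs, at 117 and 125 CPM in A549 (log2 change 0.15) and 105 and 106 CPM in SUM159 (log2 change -0.25). GAS5 had 169 and 186 CPM in A549, above every untreated library (log2 change 0.51, SE 0.0515, edgeR adjusted p = 9.19e-07), and 135 and 123 CPM in SUM159 (log2 change 0.09, SE 0.0524, adjusted p = 0.154). DANCR rose to 68.2 and 68.7 CPM in A549 (log2 change 0.32) and to 108 and 107 CPM in SUM159 (log2 change 0.10, edgeR adjusted p = 0.0354).

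The combination was also compared with each single drug. Compared with palbociclib alone, 13 members were higher and 4 lower in A549, where 23.7% of genes were higher and 27.8% lower, and 11 were higher and 6 lower in SUM159, against 23.4% and 24.9%. Compared with indisulam alone, 3 were higher and 10 lower in A549, against 18.6% and 20.1%, and 3 were higher and 13 lower in SUM159, against 24.9% and 28.0%. These comparisons share the combination libraries. With total gene counts the split against indisulam in A549 was 5 to 9, where 3821 of 15744 genes were higher and 2427 lower. By DESeq2 that against palbociclib in A549 was 13 to 2, where 2751 genes were higher and 3160 lower. SNHG1 was lower than with indisulam alone by a log2 difference of -0.68 (SE 0.0489) in A549 and -1.13 (SE 0.0496, edgeR adjusted p = 5.15e-12) in SUM159, where 105 and 106 CPM compare with 229 and 233. SNHG17 in SUM159 differed by -0.90 (SE 0.0782) and SNHG12 in A549 by -1.06 (SE 0.114). GAS5, SNHG1, SNHG4, SNHG10, SNHG12, SNHG15, SNHG17 and SNHG32 were lower than with indisulam alone in both lines, and SNHG14 was higher in both. MATR3, which overlaps SNHG4, was also lower in A549 (log2 difference -0.55, SE 0.21, edgeR adjusted p = 0.0497). In SUM159 MATR3 was at -0.23 (SE 0.211) and not called.

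On the log2 scale, the combination change was also set against palbociclib plus indisulam added together, and the difference is called the departure. A departure was called for 4 of 26 members in A549, all below that sum, where 3.53% of all genes were called. In SUM159 it was called for 6 of 26, 5 below and 1 above, where 4.38% of genes were called. GAS5 (-0.37, SE 0.0716 in A549 and -0.32, SE 0.073 in SUM159) and SNHG4 (-0.61, SE 0.144 and -0.54, SE 0.114) were below in both lines. MATR3, which overlaps SNHG4, had departures of -0.69 (SE 0.3) and -0.52 (SE 0.31), neither called. In A549 the others were SNHG12 (-0.65, SE 0.167) and SNHG32 (-0.79, SE 0.197). In SUM159 the others below were SNHG1 (-0.43, SE 0.0723), SNHG15 (-0.40, SE 0.0882) and SNHG17 (-0.52, SE 0.113), and DANCR was above (0.21, SE 0.0549). These calls depended on single libraries. No A549 member was called without either indisulam library, without the second palbociclib library or without the first untreated library. In SUM159 only SNHG1 was still called without the second indisulam or the second combination library, and the DANCR call was lost by DESeq2 and without any 1 library.

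**Figure D3:**
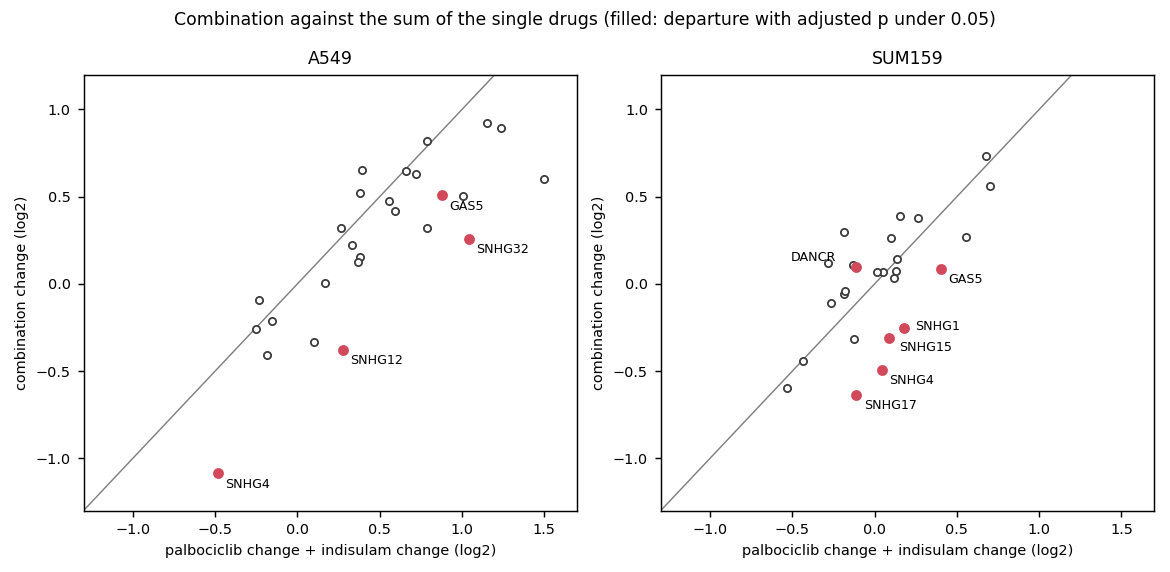
Log2 change with the combination (y axis) against the sum of the palbociclib and indisulam log2 changes (x axis) for each host gene tested in A549 and SUM159, with the line of equality and with the members whose departure had an edgeR adjusted p under 0.05 filled and named. The 4 named A549 members and 5 of the 6 in SUM159 lie below the line, and DANCR lies above it.

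The drug changes differed between the lines for a part of the members. The interaction, the SUM159 log2 change minus that of A549, was called for 11 of 27 members with indisulam, where 15% of all genes were called, for 9 with palbociclib, against 12.8%, and for 12 with the combination, against 30.9%. With indisulam 9 of the 11 were lower in SUM159, among them GAS5, SNHG7, SNHG12 and SNHG19, and SNHG4 and SNHG14 were higher. The indisulam count was 6 without the second A549 indisulam library or any 1 of the SUM159 indisulam and untreated libraries, and SNHG12 was lost in 3 and SNHG19 in 4 of these 5 settings. SNHG7, the host of SNORA17A and SNORA17B, rose in A549 from 24.5 and 25.8 to 39.9 and 38.8 CPM and had 44.3 and 42.7 CPM untreated and 47.0 and 42.4 with indisulam in SUM159, where the groups overlapped. SNHG1, EPB41L4A-AS1 and DANCR differed between the lines by 0.04 (SE 0.0739), -0.03 (SE 0.123) and 0.01 (SE 0.0669) with indisulam, none of them called. In this fit the median over all genes of the palbociclib interaction was 0.08, and it was -0.10 when the first untreated A549 library was left out, so small differences between lines depend on the scaling.

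**Figure D4:**
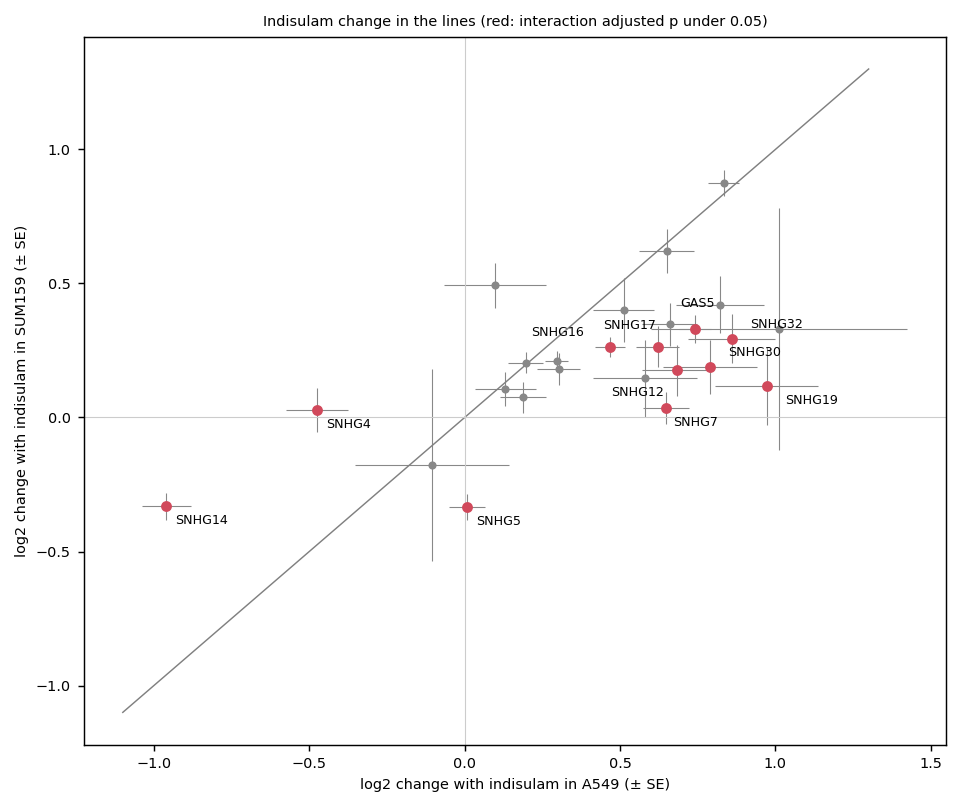
Log2 change with indisulam in SUM159 (y axis, ± SE) against that in A549 (x axis, ± SE) for the 25 host genes tested in both lines, with the line of equality and with the 11 members whose interaction had an edgeR adjusted p under 0.05 in red. GAS5 lies at 0.74 in A549 and 0.33 in SUM159, and SNHG1, in grey, lies near the line at 0.83 and 0.87.

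The kind of snoRNA hosted and the pyrimidine run were set beside the indisulam changes. In A549, 8 of 10 tested members with only box C/D snoRNAs rose, with a median log2 change of 0.63, and 8 of 10 with only box H/ACA snoRNAs rose, with a median of 0.60. In SUM159, 5 of 10 rose in each of these groups, and 3 of the first and none of the second fell. Of the members with a pyrimidine run at the start, 10 of 12 tested rose in A549 and 5 of 12 in SUM159, and of those with a listed promoter and no run 7 of 10 rose in each line. Among the members that rose in both lines, the windows of DANCR, SNHG11, SNHG16, SNHG17 and SNHG32 hold a run. Those of GAS5, EPB41L4A-AS1, SNHG1, SNHG3, SNHG10 and SNHG29 hold none, and no promoter was listed for SNHG6. The windows follow RefSeq starts, which differ from GENCODE starts for GAS5 and SNHG14 among others, so these groups may not describe every start. No difference between these groups was tested.

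Few reads came from the snoRNA genes themselves. Over 142 GENCODE snoRNA and SCARNA genes within members the summed counts were 80 to 158 per library in A549 and 132 to 270 in SUM159. Libraries made from poly(A) RNA capture mature snoRNAs poorly. SNHG14 held 84 of the 142, and GENCODE placed none within GAS5, so the snoRNAs of GAS5 are not covered. Of the 142, 6 passed the filter in A549 and 9 in SUM159. With indisulam none was called in A549 and 3 rose in SUM159. SNORA26, within DANCR, had 10 and 6 counts untreated and 23 and 29 with indisulam (log2 change 1.34, SE 0.353, edgeR adjusted p = 0.00513). The others were SNORA71C within SNHG17 (1.06, SE 0.389) and SCARNA13 within SNHG10 (1.07, SE 0.404). With the combination SNORA71C had 9 and 3 counts in SUM159, against 29 and 30 with indisulam alone, a log2 difference of -2.41 (SE 0.44, edgeR adjusted p = 0.000194) beside -0.90 for its host. Of the other SNORA71 genes tested in SNHG17, SNORA71A differed by -1.89 (SE 0.476) and SNORA71B by 0.24 (SE 0.283, edgeR adjusted p = 0.524), with 21 and 20 counts with indisulam and 25 and 28 with the combination. Of the 142, 84 meet an annotated exon of the host, where reads of the snoRNA gene and the host cannot be told apart. SNORA26, SNORA71A, SNORA71C and SCARNA13 are among those that meet an exon, and SNORA71B is not.

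The members were set beside other groups of genes linked to ribosome making. Cytosolic ribosomal protein genes, whose transcripts share the TOP start, rose for 52 of 83 and fell for 3 with indisulam in A549 (median log2 change 0.16), and rose for 4 and fell for 49 in SUM159 (median -0.10), where 13 members rose. With palbociclib 40 rose and 2 fell in A549, and 1 rose and 53 fell in SUM159. With the combination 61 rose and 4 fell in A549, and 3 rose and 70 fell in SUM159. Other TOP transcripts gave 7 higher and 3 lower of 15 with indisulam in A549, led by EIF4A2, a translation initiation helicase (log2 change 0.80), with NAP1L1 lowest (-0.17), and 3 higher and 8 lower in SUM159, where EIF4A2 (0.55) and PABPC1 (-0.33) were the extremes.

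Among protein-coding snoRNA hosts other than ribosomal protein genes 41 of 201 rose and 77 fell with indisulam in A549, and 43 of 196 rose and 72 fell in SUM159. Ribosomal protein genes that hold a snoRNA gave 16 higher and 1 lower of 28 in A549 and none higher and 18 lower in SUM159. Among other lncRNA genes 297 of 1727 rose and 292 fell in A549, and 365 of 1926 rose and 194 fell in SUM159. The 4 core proteins of box C/D particles gave 2 higher and 2 lower with indisulam in A549, SNU13 at 0.25 and NOP58 at -0.30 being the extremes, and 3 lower in SUM159, where NOP56 was lowest (-0.23). With the combination NOP56 fell in both lines (log2 changes of -0.90 and -0.86). The 4 core proteins of box H/ACA particles gave 1 higher (NOP10, 0.18) and 1 lower (DKC1, -0.19) with indisulam in A549 and 2 lower in SUM159, with DKC1 at -0.36 and GAR1 at -0.24.

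Of 9 particle assembly factors 3 rose and 4 fell with indisulam in A549 and 3 rose and 3 fell in SUM159, with the helicase RUVBL2 lowest in both (log2 changes of -0.64 and -0.48) and ZNHIT3 highest (0.45 and 0.40). Of 12 NMD factors 4 rose with indisulam in A549, SMG5 most (0.36), and 5 rose and 3 fell in SUM159, where UPF3B (0.46) and NBAS (-0.26) were the extremes. With palbociclib 8 of the 12 fell and 1 rose in A549 (UPF3B lowest at -0.46, NBAS at 0.29), and 9 fell and 1 rose in SUM159, with the helicase UPF1 at -0.57. Of 6 exon junction complex genes 4 rose with indisulam in A549, CASC3 most (0.43), and 2 rose and 2 fell in SUM159, with CASC3 at 0.25 and MAGOH at -0.19. All 6 fell with palbociclib in both lines, MAGOHB in A549 (-0.60) and MAGOH in SUM159 (-0.74) most. Their part in the changes of the host RNAs was not tested.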

How the data were processed

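Files held raw read counts per Ensembl gene, 1 file per library, deposited by the authors without normalization or pooling. Per the study's methods and the submitters' processing notes, poly(A) RNA was made into stranded libraries, aligned to GRCh38 with HISAT2 2.2.1 and counted with HTSeq. The annotation release and strand setting are not given in the sources used here. Entries that name no gene (13.2% to 16.4% of counts) were left out. Symbols and spans came from GENCODE release 44 (58207 identifiers matched), promoters and snoRNA positions from RefSeq.

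Counts were tested with edgeR 4.0.16 in R 4.3.3 (filterByExpr, TMM, glmQLFit, glmQLFTest) over all genes, with the 8 libraries of a line in 1 fit (16 for differences between lines) and Benjamini-Hochberg adjustment at 0.05. CPM used TMM-scaled library sizes. Alternatives were total counts, DESeq2 1.42.0, no filter, only the groups compared, a replicate block, a log2 change of at least 1, overlapping members left out and each library left out. The edgeR procedure was tested on simulated counts with 200 genes changed by 1 on the log2 scale with indisulam. It recovered 82.0% of them in A549 and 78.5% in SUM159, and 4.09% and 8.19% of the calls were false.

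Replicate numbers were checked as pairs: correlations of same-numbered deviations ran from -0.25 to 0.22, so numbers were not treated as pairs. Members, lists and tests were chosen with earlier results of these data known. The genes with values per library were GAS5, DANCR, EPB41L4A-AS1 and SNHG1, and per line and treatment the 3 largest increases and decreases among members with adjusted p under 0.05, a mean of at least 5 CPM and 1 direction in both same-numbered pairs, with examples. For other lists the largest increase and decrease were named, except for 1 result that is not reported here. SNHG7, SNHG16 and SNHG18, genes overlapping a member, the 5 highest members per length, and snoRNAs within members were chosen after their values were seen.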

Additional observations from a re-analysis of the deposited data

Results flagged for a closer look

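Differences between the lines were flagged wherever the interaction, the SUM159 log2 change minus the A549 log2 change, had an edgeR adjusted p under 0.05 in the fit of all 16 libraries.

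With indisulam the difference was -0.41 for GAS5, -0.51 for SNHG12, -0.20 for SNHG16, -0.36 for SNHG17, -0.85 for SNHG19, -0.60 for SNHG30, -0.56 for SNHG32, -0.34 for SNHG5 and -0.61 for SNHG7. It was 0.63 for SNHG14, which fell less in SUM159, and 0.50 for SNHG4.

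With palbociclib it was -0.29 for DANCR, -0.32 for SNHG14, -0.27 for SNHG16, -0.24 for SNHG29, -0.57 for SNHG32, -0.27 for SNHG5, -0.39 for SNHG7 and -0.37 for SNHG8. It was 0.56 for SNHG20, a call lost by DESeq2, with no filter on low counts and with total gene counts. That call was also lost without any A549 library other than the first untreated one.

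With the combination it was -0.35 for GAS5, -0.34 for SNHG1, -0.51 for SNHG16, -0.79 for SNHG17, -0.27 for SNHG29, -0.55 for SNHG3, -0.53 for SNHG5, -1.02 for SNHG7 and -0.28 for SNHG8. It was 0.34 for SNHG14, 1.21 for SNHG20 and 0.66 for SNHG4. The SNHG14 call was lost by DESeq2 and without any A549 library other than the second combination one.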

How the results depend on the processing

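Counts of called members with each drug or the combination against untreated cells stayed within 1.5 times of those reported with total gene counts as library sizes, DESeq2, no filter, only the groups compared and a replicate block. Of 650 values of named members under alternatives, 605 kept direction and side of the threshold, 40 lost the call, 3 gained it and 2 turned: DANCR with palbociclib in A549 (-0.0013 without palbociclib library 2) and EPB41L4A-AS1 with palbociclib in SUM159 (-0.019 to 0.1879 with 1 library left out, the lowest without untreated library 2), neither called in the report. Total gene counts moved the median change of all genes in SUM159 to 0.12 with palbociclib, 0.16 with the combination and 0.10 for the combination against indisulam.

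By DESeq2 the higher and lower calls were 0 and 5 for the SUM159 departure and 0 and 8 for the palbociclib difference between lines (also 0 and 8 with total gene counts). For the SUM159 departure DESeq2 called 244 of 16080 genes higher and 195 lower.

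A log2 change of at least 1 left, in A549, 0 members with palbociclib, 1 with indisulam, 1 with the combination, 2 against palbociclib, 1 against indisulam and 0 departures. In SUM159 it left 1 against indisulam and 0 elsewhere, between lines 0, 0 and 2 with palbociclib, indisulam and the combination, and 6 between untreated lines. Leaving out members that overlap another gene on the same strand left 11 against palbociclib and 2 departures in A549. It left 8 with palbociclib, 9 with indisulam, 9 against palbociclib and 8 against indisulam in SUM159, between lines 3, 6 and 6, and 15 between untreated lines. By construction these settings count fewer members. DESeq2 called 2 A549 departures among members and 343 among 15744 genes. The cause was not tested.

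Leaving out 1 library gave 6 to 10 members with palbociclib, 19 to 21 with indisulam and 14 to 18 with the combination in A549, and 10 to 14, 12 to 16 and 9 to 13 in SUM159. The lowest A549 palbociclib count was without untreated library 2. The combination gave 15 to 18 against palbociclib and 10 to 13 against indisulam in A549, and 14 to 17 and 13 to 17 in SUM159. Departures ran from 0 to 4 in A549 (1 without palbociclib library 1, 2 without untreated library 2) and 1 to 5 in SUM159 (2 without untreated library 2). Between lines the counts were 6 to 13, 6 to 12 and 11 to 17, and 21 to 24 untreated. With indisulam 6 were left without A549 indisulam library 2 or any 1 of the SUM159 indisulam and untreated libraries. Where 1 library remained, it was assumed to vary like the other groups.

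The replicate block gave 10, 21 and 18 called members with palbociclib, indisulam and the combination in A549 and 14, 16 and 11 in SUM159, and among named members ended only the call of DANCR with the combination in SUM159. Same-numbered libraries share only a number. Crossing the numbers of 1 group, chosen after seeing the data, gave 11 with palbociclib in A549 and, for the combination, 18 against palbociclib in A549, 19 in SUM159 and 17 against indisulam in SUM159, beside 8, 16, 15 and 15 uncrossed. A fit of only the groups compared was not run for departures or differences between lines, which need all groups. Depth limits members under about 1 CPM, such as SNHG25.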
